A study of Rattus norvegicus with 17 samples.

Results

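Genes that mark the dorsal or the ventral end of the hippocampus were followed through hippocampal RNA-Seq libraries of rats kept and dissected at different laboratories. The study drew up a list of 36 such markers, 12 dorsal and 24 ventral, taken from published work, to ask whether the dissections had taken the same regions at each site. The members described here are the listed markers whose symbol the study's supplementary gene lists pair with an Ensembl identifier, with older symbols accepted, and that were not at 0 in all libraries. These were 4 of the 36, namely 1 of 12 dorsal markers, Syt7 (ENSRNOG00000026432), and 3 of 24 ventral markers, Efnb2 (ENSRNOG00000014648), Nrsn2 (ENSRNOG00000023935) and Tenm4 (ENSRNOG00000011151), which the list carries under its older symbol Odz4. The other 32 markers had no identifier in those lists and were not analysed here. Each of the 4 could be matched because a list of genes nearest to differentially methylated CpG sites names it, so the 4 are not a random draw from the 36, and a single gene stands for the dorsal end.

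The long axis of the rodent hippocampus runs from the dorsal (septal) pole to the ventral (temporal) pole. The dorsal part is known for spatial learning and the ventral part for emotional behaviour and stress responses, and neurons of the same subfield express different genes at either pole. A dissection that loses tissue from one pole would be read in bulk RNA as a shift of markers of that pole against markers of the other. In bulk tissue, fewer cells of a type and less RNA per cell cannot be told apart.

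All rats were male SAS-SD Sprague Dawley animals that received no treatment and were handled daily, then killed by rapid decapitation without anesthesia. Whole hippocampi were dissected, and 1 library was made per rat, 5 at Site #1 (Legacy), 6 at Site #2 (Trinity) and 6 at Site #3 (UAB). Rats of Site #1 and Site #2 came from Charles River at 8.3 weeks of age, lived alone on a LabDiet chow for 18 to 19 days and were dissected in saline. Site #1 and Site #2 still differed from each other in transit from the breeder, cage ventilation, cage size, bedding and chow vendor. These factors cannot be told apart from the site in that pair. Rats of Site #3 came from Envigo (Harlan) at 8.0 weeks, lived in pairs on an NIH diet for 27 days and were dissected in bubbled artificial cerebrospinal fluid, so vendor, stay, housing, chow and buffer cannot be told apart from Site #3. The deposited values are on a log2 scale and already normalized between libraries, so they do not give the depth of each library, and 22664 of 32494 listed genes were not at 0 in every library.

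The matched markers of other hippocampal regions were present throughout. Identifiers could be matched for 2 of 10 CA1, 4 of 41 CA2, 1 of 61 CA4 and 8 of 39 dentate gyrus markers, from the same supplementary lists as the members. The 15 markers of CA1, CA2, CA4 and the dentate gyrus (DG) that could be matched all averaged 1 approximate CPM or more (2 raised to the deposited value, then scaled to the same sum in every library), with mean log2 values from 8.40 to 13.56. Replicate 1 of Site #3 stood apart in choroid plexus genes. Its value for F5 was 12.04 against 5.36 to 5.76 in the other 16 libraries, and its value for Aqp1, the water channel of that epithelium, was 7.74 against 5.28 to 6.18. Tests and correlations of the members printed below are given with and without this library where the call or the direction changed. Descriptions such as medians over genes, the spread within sites and principal components were not repeated without it.

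Syt7 encodes synaptotagmin 7, a calcium sensor of synaptic vesicle release with slow kinetics. Its values at Site #1 were 12.43, 12.47, 12.20, 12.24 and 12.11 on the log2 scale. At Site #2 they ran from 11.93 through a median of 12.16 to 12.45, and at Site #3 from 12.24 through 12.32 to 12.55. The lowest libraries were replicates 4 and 3 of Site #2, and the highest was replicate 3 of Site #3. The sites overlapped in every pair, and the whole range over 17 rats was 1.53-fold.

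Efnb2 encodes ephrin-B2, a membrane-bound ligand of Eph receptors that guides axons and acts at synapses. Its values at Site #1 were 10.08, 10.26, 10.57, 10.69 and 10.26. At Site #2 they lay close together, from 10.19 through a median of 10.32 to 10.42, and at Site #3 they ran from 10.21 through 10.34 to 10.67. The lowest and the highest library of all 17 both came from Site #1, with a range of 1.52-fold. Nrsn2 encodes neurensin-2, a small membrane protein of vesicles in neurons. Its values at Site #1 were 11.74, 11.85, 11.97, 12.13 and 12.10. At Site #2 they ran from 11.72 through a median of 11.93 to 12.001, and at Site #3 from 11.75 through 11.92 to 12.15. Nrsn2 had the narrowest range of the 4 members, 1.35-fold, and each site covered most of it.

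Tenm4 encodes teneurin-4, a large transmembrane adhesion protein of the teneurin family, whose members bind latrophilins across the synapse. Its values at Site #1 were 11.07, 11.22, 11.22, 11.22 and 10.97. At Site #2 they ran from 10.49 through a median of 10.93 to 11.11, and at Site #3 from 10.65 through 11.17 to 11.30. Replicates 4 and 3 of Site #2, at 10.49 and 10.63, and replicate 5 of Site #3, at 10.65, lay below the other 14 libraries, which were all at 10.87 or above. The range of Tenm4, 1.76-fold, was the widest of the members.

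**Figure D1:**
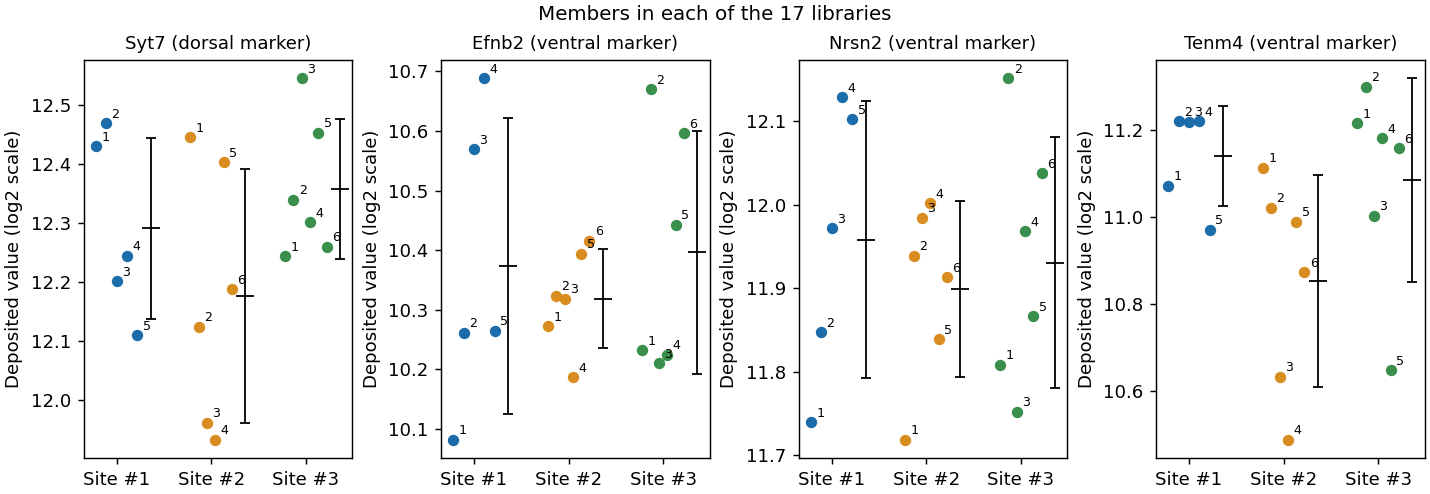
Deposited log2 value (vertical axis, a separate scale for each gene) of Syt7, Efnb2, Nrsn2 and Tenm4 in each of the 17 libraries, grouped by site, with replicate numbers beside the points and the mean ± SD of each site as bars. The sites overlap for every gene, and the lowest Tenm4 values, 10.49 and 10.63, come from replicates 4 and 3 of Site #2.

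The DNA upstream of the ventral members is shown because these genes are compared with each other below. RefSeq (build GRCr8, not the rn6 build used by the authors) gave the 250 bases before the start of 3 of the 4 members, Efnb2 at chr16:87484965-87485214 on the plus strand, Nrsn2 at chr3:161307594-161307843 on the minus strand and Tenm4 at chr1:159973767-159974016 on the plus strand. Syt7 was not among the entries matched. Capitals mark matches on either strand to promoter motifs. The GC box was searched as GGGCGG and the TATA box as TATAAA. The CCAAT box was searched by these same 5 letters, the E-box as CACGTG and the cAMP response element as TGACGTCA.
Efnb2: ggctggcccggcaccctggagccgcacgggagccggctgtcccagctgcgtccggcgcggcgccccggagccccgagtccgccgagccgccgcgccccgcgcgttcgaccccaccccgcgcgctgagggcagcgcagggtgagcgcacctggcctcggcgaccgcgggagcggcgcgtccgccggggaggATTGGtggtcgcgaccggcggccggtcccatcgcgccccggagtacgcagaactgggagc
Nrsn2: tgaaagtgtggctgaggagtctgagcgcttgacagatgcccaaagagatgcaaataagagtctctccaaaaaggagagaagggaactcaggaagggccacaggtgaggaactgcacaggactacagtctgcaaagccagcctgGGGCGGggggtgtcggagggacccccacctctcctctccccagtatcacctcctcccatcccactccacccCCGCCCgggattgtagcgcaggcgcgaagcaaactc
Tenm4: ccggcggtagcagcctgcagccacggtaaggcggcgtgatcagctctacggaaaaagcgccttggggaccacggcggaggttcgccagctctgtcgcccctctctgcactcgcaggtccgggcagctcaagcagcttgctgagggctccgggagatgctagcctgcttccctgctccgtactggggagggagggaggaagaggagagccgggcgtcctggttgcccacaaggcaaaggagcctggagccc

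These windows differ in base composition. The Efnb2 window is 80.4% G or C and holds 43 CpG dinucleotides, more than 99.3% of 33469 windows of the same length, whose median is 5. The Tenm4 window holds 17 CpG at 66.8% G or C, and the Nrsn2 window holds 8 at 59.2%. Efnb2 has 1 CCAAT match, read on the opposite strand, and such a match is found in 34.0% of all windows. Nrsn2 has 2 GC boxes, 1 on each strand, and 30.5% of windows hold at least 1. The Tenm4 window holds no match to the 5 motifs. TATA boxes are found in 12.9% of all windows, E-boxes in 5.59% and cAMP response elements in 1.59%, and none of the 3 windows has one. A match describes letters only, and the 3 ventral members have no motif of this set in common.

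The first comparison asked whether the members differed between pairs of sites. None of the 4 did so at an adjusted p under 0.05 by limma in any pair, with p values adjusted over all 22664 genes by the Benjamini-Hochberg method. Among all genes, the share called was 0% between Sites #1 and #2, 0.101% between Sites #1 and #3 and 1.05% between Sites #2 and #3, so a count of 0 of 4 lies where the background puts it. The sites did not separate fully for any member in any pair either, while 0.878%, 1.38% and 1.95% of all genes had no overlap in the same order of pairs. Without replicate 1 of Site #3 the count was again 0 of 4 in both pairs that use it.

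Tenm4 showed the widest difference between site means. Its mean ± SD was 11.14 ± 0.11 at Site #1 (n = 5), 10.85 ± 0.24 at Site #2 (n = 6) and 11.08 ± 0.23 at Site #3 (n = 6). Site #2 was lower than Site #1 by a log2 difference of -0.29 (SE 0.11, 95% confidence interval -0.52 to -0.05, limma adjusted p = 0.680). The exact permutation test of the same pair gave p = 0.0368, two-sided. That p rose above 0.05 under median centring (exact permutation p = 0.0541) and without replicate 1, 2, 3 or 4 of Site #1 or replicate 3, 4 or 6 of Site #2 (exact permutation p from 0.0524 to 0.0810). Tenm4 was thus the only one of the 4 with an unadjusted p under 0.05 in this pair by either test, against 6.74% of all genes by limma and 9.67% by exact permutation. Site #3 exceeded Site #2 by 0.23 (SE 0.12, interval -0.04 to 0.50, limma adjusted p = 0.426). Site #3 and Site #1 differed by -0.06 (SE 0.10, interval -0.28 to 0.17, limma adjusted p = 0.912). Over all 3 sites the exact permutation p was 0.0776. It was 0.0122 without replicate 5 of Site #3 and 0.0432 without replicate 1 of Site #2, and it reached 0.212 without another single library, so this p depends on which rats are counted.

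Syt7, the dorsal marker, averaged 12.29 ± 0.15, 12.18 ± 0.22 and 12.36 ± 0.12 at Sites #1, #2 and #3. The difference of Site #3 from Site #2 was 0.18 (SE 0.09, interval -0.02 to 0.38, limma adjusted p = 0.386). Site #2 differed from Site #1 by -0.12 (interval -0.34 to 0.11) and Site #3 from Site #1 by 0.07 (interval -0.10 to 0.23), with limma adjusted p = 0.820 and 0.841. The exact permutation p of Syt7 over the 3 sites was 0.205.

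Efnb2 averaged 10.37 ± 0.25, 10.32 ± 0.08 and 10.40 ± 0.20, and its differences between pairs of sites were -0.05 (Site #2 minus Site #1), 0.02 (Site #3 minus Site #1) and 0.08 (Site #3 minus Site #2). Their 95% intervals ran from -0.27 to 0.16, from -0.24 to 0.29 and from -0.10 to 0.26. Nrsn2 averaged 11.96 ± 0.17, 11.90 ± 0.11 and 11.93 ± 0.15, with differences of -0.06, -0.03 and 0.03 and intervals of -0.22 to 0.11, -0.22 to 0.16 and -0.12 to 0.18. The smallest limma adjusted p of these 6 differences was 0.695, and over the 3 sites the exact permutation p was 0.763 for Efnb2 and 0.784 for Nrsn2. All 4 members, dorsal and ventral, had their lowest site mean at Site #2, but the share of all genes with this order was not counted. For Efnb2 and Nrsn2 the order changed when single libraries were left out. Site #2 minus Site #1 was 0.024 for Efnb2 without replicate 4 of Site #1. Site #3 minus Site #2 was -0.013 for Nrsn2 without replicate 2 of Site #3. The intervals leave room for site differences of up to about 0.29 log2 units in Efnb2 and 0.22 in Nrsn2. Between Site #3 and either other site, 0 of 4 members had an unadjusted p under 0.05 by limma or by exact permutation. All genes reached it in 8.17% and 14.8% by limma and in 8.4% and 14.1% by exact permutation. For Site #2 vs Site #3 that count depended on single rats and, by limma, on array weights and quantile normalization. The exact permutation p was 0.0173 for Tenm4 without replicate 5 of Site #3 and 0.0390 for Syt7 without replicate 1 of Site #2. The comparisons share libraries of each site and are not independent of each other.

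**Figure D2:**
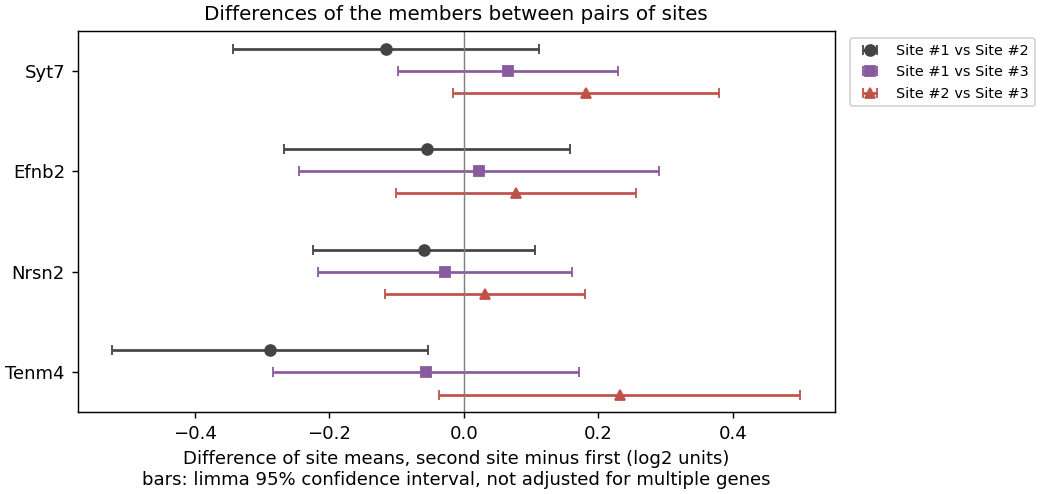
Difference between site means (horizontal axis, log2 units, second site minus first) of each member for the 3 pairs of sites, with limma 95% confidence intervals that are not adjusted for the number of genes. The interval of Tenm4 for Site #1 vs Site #2, -0.52 to -0.05, is the one that leaves out 0.

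The members were also set beside the rest of the genes. Their median log2 difference was -0.09 from Site #1 to Site #2, -0.002 from Site #1 to Site #3 and 0.13 from Site #2 to Site #3. Genes averaging 1 CPM or more had medians of -0.005, 0.0007 and 0.003 in the same order, and the 15 other region markers had medians of 0.002, 0.02 and 0.05. The median absolute difference was 0.087, 0.042 and 0.130 for the members, 0.047, 0.043 and 0.060 for genes averaging 1 CPM or more and 0.052, 0.051 and 0.101 for the other region markers. Of these 15, 0, 0 and 1 were called, the CA2 marker Dusp5, a phosphatase of MAP kinases, being higher at Site #3 than at Site #2 by 0.19 (SE 0.04, limma adjusted p = 0.0460). That call was lost in most alternatives, among them 10 of 12 in which a single library was left out, replicate 1 of Site #3 included (limma adjusted p = 0.0816). It was also lost with all libraries in 1 fit (0.0647), under median centring (0.122) and with other settings, and the limma adjusted p ran from 0.0368 to 0.125.

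The balance of the dorsal against the ventral members was then described for each rat, as the deviation of Syt7 from its mean minus the mean deviation of Efnb2, Nrsn2 and Tenm4. It was 0.29, 0.19, -0.22, -0.27 and -0.17 at Site #1. At Site #2 it ran from -0.19 to 0.24 and at Site #3 from -0.20 to 0.39. Rats with a positive and rats with a negative balance occurred at every site, and the site means were -0.04 ± 0.26, -0.02 ± 0.18 and 0.05 ± 0.24. The most dorsal balance, 0.39, was that of replicate 3 of Site #3, in which Syt7 was highest of all rats at 12.55 and Efnb2, Nrsn2 and Tenm4 were all below their means over the 17 libraries. The most ventral balance was that of replicate 4 of Site #1, in which Efnb2 was highest of all rats at 10.69 and Nrsn2 stood at 12.13.

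**Figure D3:**
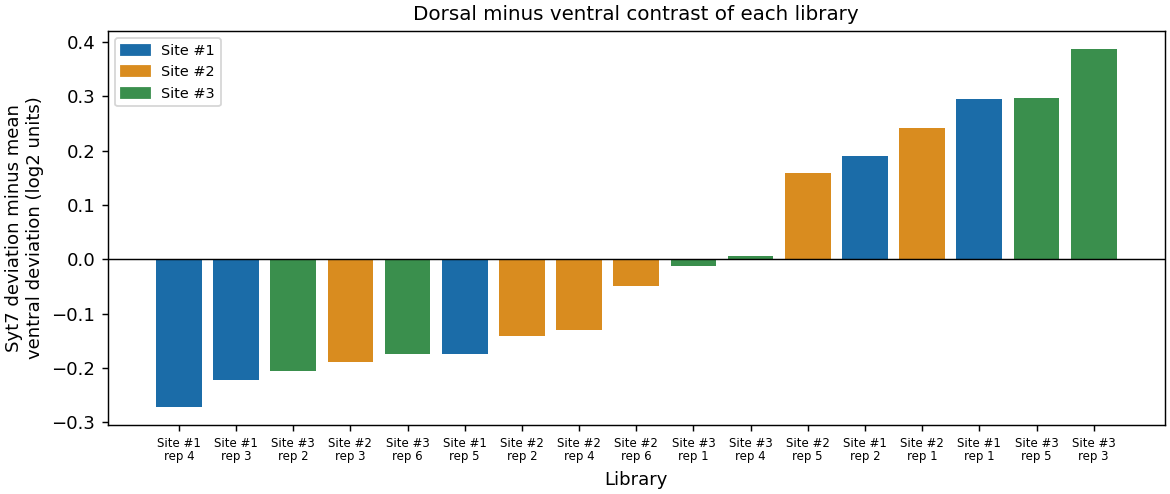
Dorsal minus ventral balance (vertical axis, log2 units) of each library, in ascending order, with bars coloured by site. Values run from -0.27 to 0.39, and libraries of all 3 sites lie on both sides of 0.

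Most of the variation of the members lay between rats of the same site. Differences between sites held 29.8% of the sum of squares of Tenm4, 20.3% of that of Syt7, 3.71% of that of Efnb2 and 3.31% of that of Nrsn2. In the other region markers this share ran from 0.98% for Tiam1 to 55.0% for Dusp5, and it was not computed over all genes. The SD within sites was 0.211 for Tenm4, 0.187 for Efnb2, 0.169 for Syt7 and 0.141 for Nrsn2. The median SD of the 500 genes nearest in mean level was 0.081, 0.086, 0.078 and 0.078. Each member thus varied more between rats than at least 90% of genes of like level, at the 96.2, 94.4, 94.2 and 90.4 percentile. All 4 members lay at or above the 90th percentile, as did 5 of the 15 other region markers, whose percentiles ran from 17.2 to 98.4 with a median of 80.4. This difference from the other region markers was not tested.

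The next comparison asked whether markers of one pole vary together between rats and against the dorsal marker. Over the 17 libraries, which were normalized together, the 6 pairs of members gave 1 correlation with an adjusted p under 0.05. Efnb2 and Nrsn2, both ventral, had r = 0.64 (permutation p = 0.00646, adjusted over 6 pairs 0.0388) and rho = 0.53 (permutation p = 0.0310, adjusted 0.0930). Replicate 4 of Site #1 and replicates 2 and 6 of Site #3 were high in both genes. Without replicate 4 of Site #1 and replicate 2 of Site #3, the libraries farthest from the median of Efnb2, r was 0.40. Without replicate 1 of Site #2 and replicate 2 of Site #3, the farthest for Nrsn2, it was 0.56. The correlation was -0.18 within Site #2 (exact permutation p = 0.717, n = 6) and 0.82 within Site #3 (exact permutation p = 0.0542, n = 6). Leaving out 1 library ended the call for replicate 1, 2 or 4 of Site #1, replicate 2 of Site #2 and replicate 2, 3 or 6 of Site #3, with r from 0.55 to 0.64 and adjusted permutation p from 0.05004 to 0.103. Among the 13678 other genes averaging 1 CPM or more, 2.95% had an r with Efnb2 at least as high as that of Nrsn2.

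Syt7 and Nrsn2, a dorsal and a ventral marker, had a negative correlation that missed the threshold over all 17 libraries, with r = -0.57 (permutation p = 0.0180, adjusted 0.0541) and rho = -0.57 (permutation p = 0.0189, adjusted 0.0930). At Site #2 the order of the rats by Nrsn2 was the exact reverse of their order by Syt7, with r = -0.94 (exact permutation p = 0.00139, n = 6, and 0.00278 for rho). Within Site #3 r was -0.48 (exact permutation p = 0.340, n = 6). With site means removed r was -0.71 (adjusted permutation p = 0.0104), and without replicate 1 of Site #3 it was -0.59 (adjusted permutation p = 0.0485). It also passed without replicate 2 (-0.68, adjusted permutation p = 0.0254) or replicate 5 of Site #3 (-0.56, adjusted permutation p = 0.0489). Under quantile normalization r was -0.49 (adjusted permutation p = 0.138). Leaving out the libraries farthest from the median of Syt7, replicates 4 and 3 of Site #2, gave r = -0.62. Of the other genes, 8.63% had an r with Syt7 at or below that of Nrsn2, and 3.01% did with site means removed.

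None of the correlations of Tenm4 with the other members passed the threshold. Its r was 0.32 with Efnb2 (permutation p = 0.218, adjusted 0.327) and 0.05 with Nrsn2 (permutation p = 0.848, adjusted 0.889), and its rho was 0.32 and 0.13. With Nrsn2, r was -0.81 within Site #2 (exact permutation p = 0.0542, n = 6) and 0.49 within Site #3 (exact permutation p = 0.354, n = 6). With the dorsal marker Syt7 it had r = 0.46 (permutation p = 0.0620, adjusted 0.124) and rho = 0.34. That relation rested on replicates 3 and 4 of Site #2, which were lowest in both genes, and r was -0.11 without them. Without replicate 5 of Site #3 it was 0.64 (adjusted permutation p = 0.0197). It was 0.87 within Site #2 (exact permutation p = 0.0417, n = 6) and -0.64 within Site #3 (exact permutation p = 0.174, n = 6). Syt7 and Efnb2 had r = -0.04 and rho = -0.08, with an adjusted permutation p of 0.889 for r. No correlation was computed within Site #1, which holds 5 libraries.

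**Figure D4:**
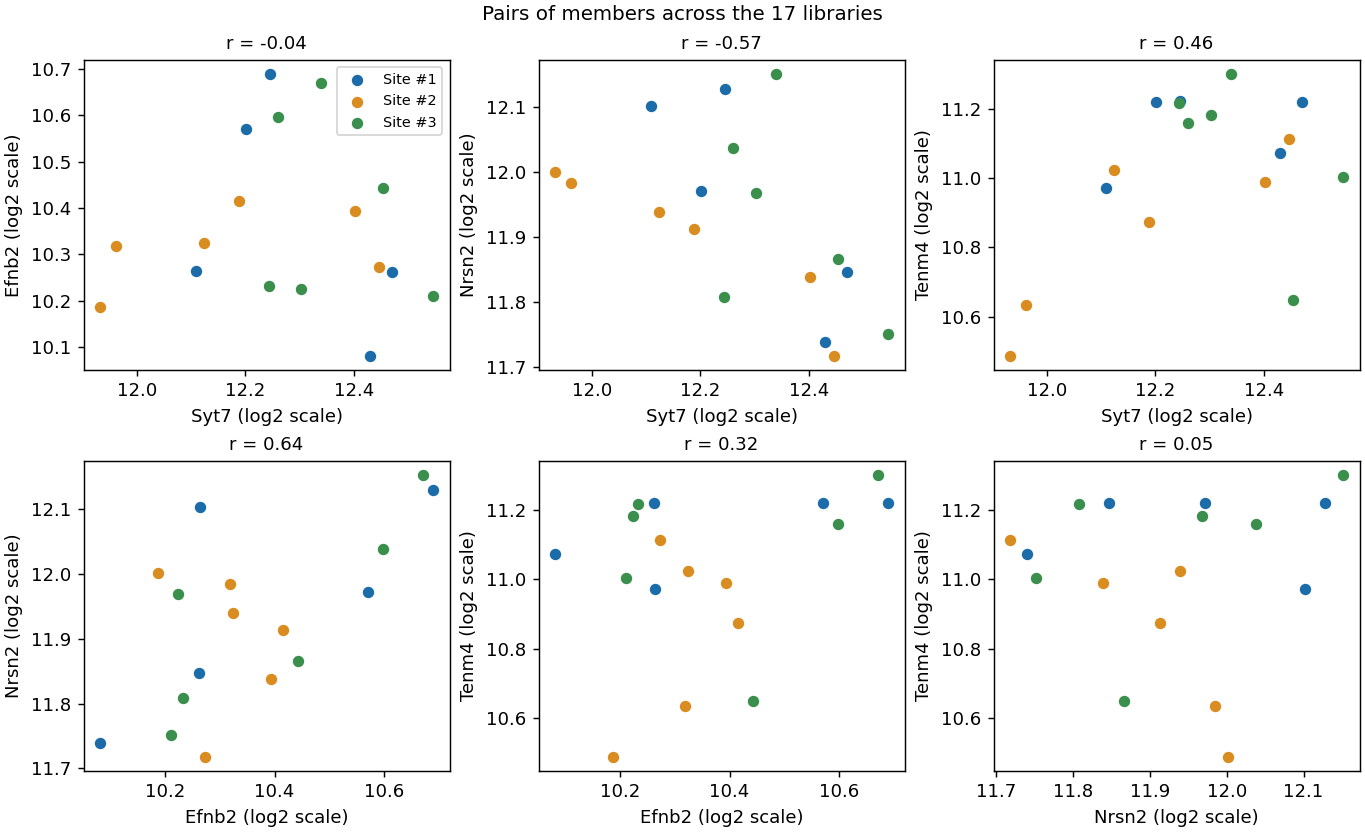
Deposited log2 values of each pair of members in the 17 libraries, 1 point per rat, coloured by site, with Pearson's r above each panel. The rats of Site #2 lie on a falling line for Syt7 and Nrsn2 (r = -0.94 within the site), and 2 of them lie low in both Syt7 and Tenm4.

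The families of the members were described from lists of Eph receptors and ephrins, of teneurins and their partners, of synaptotagmins and the exocytosis machinery, and of neurensins. Identifiers could be matched for 4 of 22, 3 of 11, 8 of 35 and 1 of 2 of these genes, the members included. None of the 12 other family genes was called in any pair by limma. At an unadjusted limma p under 0.05, 0, 0 and 2 of the 12 passed, against 6.74%, 8.17% and 14.8% of all genes, so 2 of 12 lies near the background. Rims4, of the RIM family of active zone proteins, differed between Site #2 and Site #3 by 0.19 on the log2 scale (limma adjusted p = 0.242), and Epha4, a receptor that binds ephrin-B2, differed by -0.13 (limma adjusted p = 0.326). The medians of the 12 genes were -0.04, 0.02 and 0.04 in the same order of pairs as above. Efnb3, which encodes ephrin-B3, differed by 0.003, 0.05 and 0.04. Tenm2, another teneurin, differed by -0.06, 0.05 and 0.11, and Adgrl2, the latrophilin 2 receptor of teneurins, by 0.16, 0.07 and -0.09. Stx4, a syntaxin of the membrane fusion machinery, differed by -0.03, -0.03 and 0.002.

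The same genes were compared with the members between rats. The correlations of the 4 members with 48 genes of the family, region and cell type lists, 192 in all, were added after the data had been seen, and the genes named from them were chosen after their values were seen. For r there were 14 with an adjusted permutation p under 0.05, 4 for Syt7, 5 for Efnb2, 3 for Nrsn2 and 2 for Tenm4. Large values of r are common among all genes. Over the 13678 other genes averaging 1 CPM or more, the 5th and 95th percentiles of r were -0.64 and 0.74 for Syt7, -0.57 and 0.56 for Efnb2, -0.66 and 0.62 for Nrsn2 and -0.59 and 0.60 for Tenm4.

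Efnb2 and its receptor gene Epha4 went in opposite directions, with r = -0.86 (permutation p = 2e-05, adjusted 0.00096) and rho = -0.78 (adjusted permutation p = 0.0125). Ephb3, the other Eph receptor gene that could be matched, did not follow Efnb2. Its r was 0.05 (adjusted permutation p = 0.937) and its rho 0.03, and r was -0.02 without replicate 1 of Site #3. Epha4 was lowest, at 13.96 and 14.01, in replicates 4 and 3 of Site #1, in which Efnb2 stood at 10.69 and 10.57, and highest, at 14.55, in replicate 1 of Site #1, in which Efnb2 was lowest at 10.08. Within Site #2 r was -0.60 and within Site #3 -0.97, and it was -0.79 without the rats farthest from the median of Efnb2. Nrsn2 followed Efnb3 with r = 0.88 and rho = 0.91 (adjusted permutation p = 0.00096 for both), with 0.80 within Site #2, 0.96 within Site #3 and 0.82 without the rats farthest from the median of Nrsn2. Efnb3 ran from 12.59 in replicate 1 of Site #1 to 13.03 in replicate 2 of Site #3, where Nrsn2 stood at 11.74 and 12.15. Tenm4 followed Tenm2 with r = 0.73 (adjusted permutation p = 0.0235) and rho = 0.77 (adjusted permutation p = 0.0140), with 0.83 within Site #2 and 0.73 within Site #3. Without replicate 4 of Site #2 it was 0.66 and no longer past the threshold (adjusted permutation p = 0.0974). Tenm2 was lowest, at 12.56, in replicate 4 of Site #2 and highest in replicate 2 of Site #3, which were also the lowest and the highest rat for Tenm4.

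Other correlations passed as well, within and across the families. Nrsn2 and Epha4 had r = -0.75 (adjusted permutation p = 0.0175, and 0.115 under median centring), and Efnb2 and Efnb3 had r = 0.68 (adjusted permutation p = 0.0391), with -0.001 within Site #2 and 0.85 within Site #3. By rank, Nrsn2 and Epha4 passed (rho = -0.69, adjusted permutation p = 0.0447), and Efnb2 and Efnb3 did not (rho = 0.60, adjusted permutation p = 0.135). Efnb2 had r = 0.69 with Doc2a, a calcium sensor of vesicle release, and Syt7 had r = 0.69 with Rims4 (adjusted permutation p = 0.0371 for both). By rank, Efnb2 and Doc2a passed (rho = 0.70, adjusted permutation p = 0.0447), and Syt7 and Rims4 did not (rho = 0.58, adjusted permutation p = 0.153). The r of Syt7 with Rims4 lay below the 95th percentile of r with Syt7 over all genes, 0.74. Without the 2 libraries farthest from the median of Syt7, r with Rims4 was 0.35, and it was 0.80 within Site #2 and 0.45 within Site #3. Without the 2 farthest for Efnb2, r with Doc2a was 0.60, with 0.66 within Site #2 and 0.48 within Site #3. When single libraries were left out, the call was lost in 8 of 17 cases for Efnb2 and Efnb3, in 11 for Efnb2 and Doc2a and in 6 for Syt7 and Rims4, with adjusted permutation p of up to 0.122, 0.0794 and 0.182. For each of these pairs the call was also lost in 1 of 3 other settings (adjusted permutation p = 0.0712, 0.0567 and 0.0879, in the same order). Without replicate 1 of Site #3 it was lost for Efnb2 with Efnb3 (0.67, adjusted permutation p = 0.0570) and with Doc2a (0.69, adjusted permutation p = 0.0532).

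Syt7 was correlated with some markers of the DG. Its r was 0.86 with Slc4a4, a sodium bicarbonate cotransporter (rho = 0.82, adjusted permutation p = 0.00096 for r), 0.79 with Zfp536, a zinc finger repressor (rho = 0.70, adjusted permutation p = 0.00416), and 0.71 with Pde7b, a phosphodiesterase of cyclic AMP (adjusted permutation p = 0.0332). By rank, Pde7b missed the threshold (rho = 0.69, adjusted permutation p = 0.0525). The call for Pde7b was also lost under quantile normalization (r = 0.61, adjusted permutation p = 0.103) and without replicate 2 of Site #1 (adjusted permutation p = 0.0614), replicate 1 of Site #2 (0.0567) or replicate 4 of Site #2 (0.0673). These were 3 of the 8 DG markers that could be matched, and 39 are listed. The other 5 had r from -0.40, for C1ql2, to 0.64, for Tiam1. Slc4a4 and Zfp536 lay above the 95th percentile of r with Syt7 over all genes, 0.74, and Pde7b lay below it. Without replicates 4 and 3 of Site #2, r with Slc4a4 was 0.72 and with Zfp536 0.60. Zfp536 and Nrsn2 went in opposite directions, with r = -0.77 and rho = -0.84 (adjusted permutation p = 0.00878 and 0.00192), and r was -0.88 within Site #2 and -0.97 within Site #3.

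Markers of the neocortex that lies next to the hippocampus were compared with Efnb2 in the same way. Of the 6 genes on that list 3 could be matched, and 2 of these 3 moved with Efnb2. Ntsr1, the neurotensin receptor 1 gene, had r = 0.87 and rho = 0.92 with Efnb2 (adjusted permutation p = 0.00096 for both). Cux2, a transcription factor of upper cortical layers, had r = 0.82 and rho = 0.79 (adjusted permutation p = 0.00230 and 0.0111), and Tle4, a transcriptional corepressor of deep layers, had r = -0.30 (permutation p = 0.235, adjusted 0.513). Without the rats farthest from the median of Efnb2, r was 0.77 for Ntsr1 and 0.69 for Cux2. Within Site #2 these were 0.68 and 0.85, and within Site #3 0.93 and 0.82. Ntsr1 ran from 5.66 in replicate 4 of Site #2 to 6.501 in replicate 4 of Site #1, and Cux2 from 9.26 to 10.21 in the same rats, which were among the lowest and at the top for Efnb2. The summed level of the 3 genes was 95.004 to 114.1 approximate CPM at Site #1. It was 94.7 to 109.7 at Site #2 and 93.0 to 108.6 at Site #3, and none of the 3 was at 0. Most of the sum came from Tle4, which averaged 80.01 approximate CPM over all libraries, against 21.75 for Cux2 and 1.504 for Ntsr1. The sum thus says little about Cux2 and Ntsr1, the genes that moved with Efnb2. The part of neighbouring cortex in the Efnb2 values was not tested. None of the correlations of the members with the matched choroid plexus genes (2 of 9), the fibroblast gene Col1a1 (1 of 7) or genes of microglia, astrocytes, neurons and oligodendrocytes had an adjusted permutation p under 0.05 for r. By rank, Tenm4 and the microglial receptor gene Csf1r passed (rho = 0.72, adjusted permutation p = 0.0447), while their r was 0.58 (adjusted permutation p = 0.114). The correlations of the members with choroid plexus genes and Col1a1 depended on replicate 1 of Site #3. Without it, r with Aqp1 went from 0.05 to 0.56 for Nrsn2, from -0.01 to 0.33 for Efnb2 and from 0.19 to 0.006 for Tenm4, and r of Syt7 with F5 went from -0.02 to 0.31. With Col1a1 it went from 0.33 to 0.51 for Nrsn2, from -0.01 to 0.09 for Efnb2 and from 0.05 to -0.06 for Tenm4. In Col1a1 itself that library did not stand apart, at 10.70 against 8.53 to 10.95 in the other 16. The highest values of Sites #1 and #2 were 10.95 and 10.64. The part of these tissues in the values of the members was not tested.

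**Figure D5:**
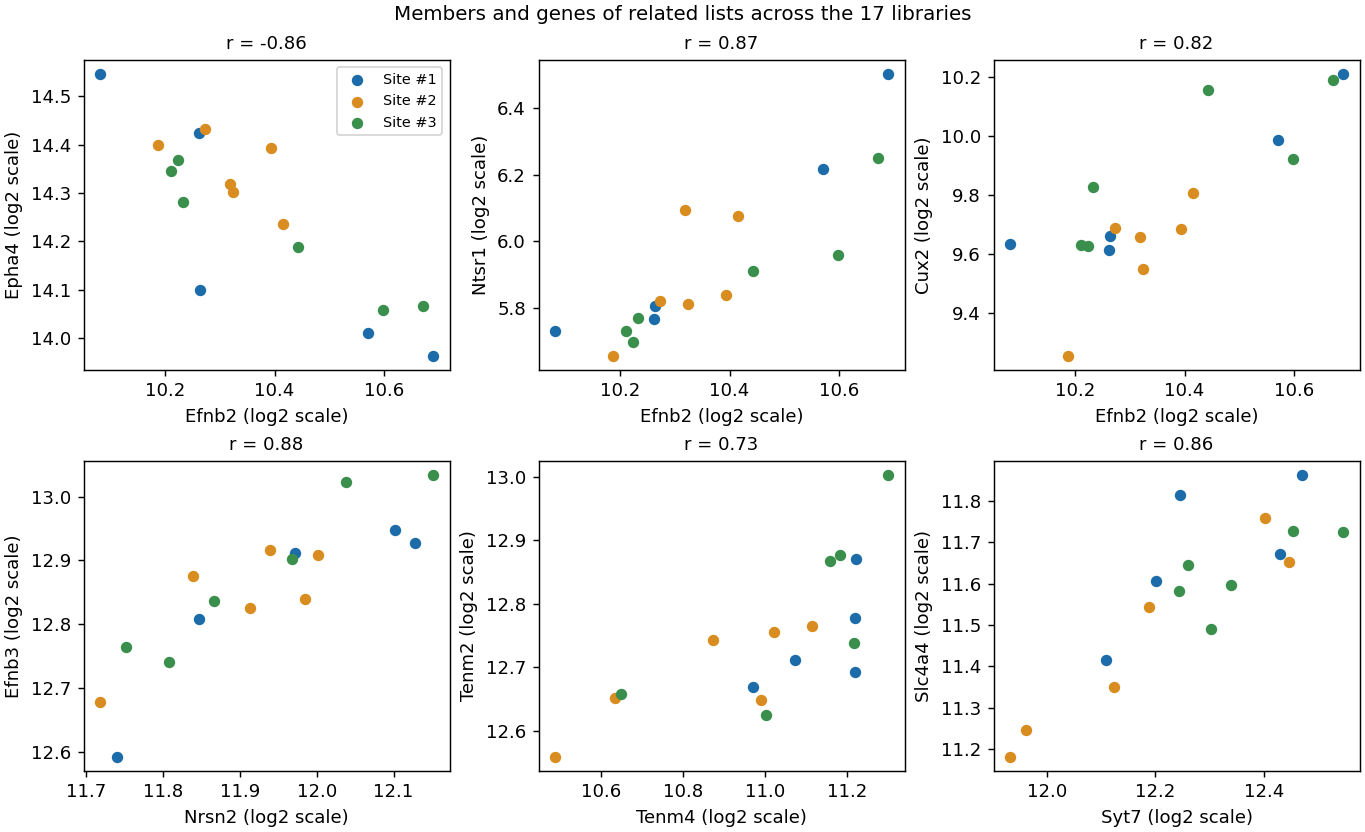
Deposited log2 values of members (horizontal axes) and of genes from the family, neocortex and DG lists (vertical axes) in the 17 libraries, 1 point per rat, coloured by site, with Pearson's r above each panel. Efnb2 falls as Epha4 rises (r = -0.86) and rises with Ntsr1 and Cux2 (0.87 and 0.82), and rats of all sites share each line.

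The named genes most like each member in pattern were ranked by r over the 17 libraries, among 954 genes with a symbol that averaged 1 CPM or more, as a description. For Syt7 these were Rbfox2, a splicing regulator (r = 0.90), Aff3, a nuclear protein of transcription elongation (0.90), and Grin2a, the NMDA receptor subunit GluN2A (0.89), and the most opposite was Vdac2, a channel of the outer mitochondrial membrane (-0.88). For Efnb2 they were Ntsr1 (0.87), Rgma, a repulsive guidance molecule (0.86), and Slc24a1, a sodium, calcium and potassium exchanger (0.85), with Anxa11, an annexin, most opposite (-0.87). For Nrsn2 they were Efnb3 (0.88), Naxd, a repair enzyme of NADH hydrates (0.82), and Cdh15, a cadherin (0.81), with Adam12, a metalloprotease, most opposite (-0.87). For Tenm4 they were Sox5, a transcription factor (0.90), Mical3, an actin-regulating oxidase (0.86), and Srcin1, an adaptor of the kinase Src (0.83), with Eif1b, a translation initiation factor, most opposite (-0.81). Among all 13678 other genes, named or not, Sox5 ranked 3 for Tenm4 and Efnb3 ranked 13 for Nrsn2.

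The members differed in how many genes shared their pattern. Syt7 had 389 genes with an r of at least 0.8 among the 13678, against 65 for Efnb2, 68 for Nrsn2 and 37 for Tenm4. Genes with an r of -0.8 or below numbered 36, 37, 75 and 29. The first principal component of the genes averaging 1 CPM or more, with 22.5% of the variance, had r = 0.37 with Syt7, -0.22 with Efnb2, -0.45 with Nrsn2 and -0.18 with Tenm4. The second, with 18.0%, had r = 0.78 with Syt7, 0.59 with Tenm4, -0.63 with Nrsn2 and -0.16 with Efnb2. The third, with 13.4%, had r = 0.80 with Efnb2, 0.48 with Nrsn2, 0.45 with Tenm4 and 0.29 with Syt7. By the sign of r alone, the dorsal marker lay opposite all 3 ventral markers on the first component, where r was small for Efnb2 (-0.22) and Tenm4 (-0.18). By sign it lay on the side of Tenm4 on the second, and on the side of all 3 on the third. These values describe the 17 libraries and were not tested.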

How the data were processed

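RNA-Seq libraries of rat hippocampus were grouped by the site in the sample labels, 5, 6 and 6 per site. Reads were trimmed by the authors with Trimmomatic, mapped with HISAT2 to the rn6 genome and assigned to genes with featureCounts. The authors deposited log2 values, normalized by a step not given in the sources used here, and these keep no counts. Fold ranges, log2 differences and approximate CPM are those of the deposited scale, which may be shrunken relative to counts. The number of rats limits the precision, and p values measure the spread between rats.

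Here limma (lmFit, eBayes with trend, two-sided) was run on the deposited log2 values for each pair of sites over 22664 genes, with Benjamini-Hochberg adjustment and a threshold of 0.05. Genes at 0 in all libraries were left out. No pseudocount was added. Differences are second site minus first. Exact permutation covered all assignments of libraries to sites. Correlations over 16 or 17 libraries used 100000 resamples, whose smallest p is 1e-05, and those within a site were exact.

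The members and lists were chosen with earlier results of these data known. Named genes were all members, the 3 most and the 1 least correlated named genes of each member, and list genes that were called or, failing that, 2 with the highest level. A result for 1 list gene is not reported here. Symbols come from the study's supplementary lists, 1 of them held in part. The authors' own comparisons, including methylation differences, were used here only through their gene lists, which paired symbols with identifiers and so decided which members could be analysed.

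Alternatives were 1 fit of all libraries, array weights, a CPM filter, robust estimation, no trend, median centring, quantile normalization, a replicate block, and each library left out. Scripts were tested on simulated data. The tools were Python 3.11.15 (scipy 1.17.1, pandas 2.3.3, numpy 2.4.6, matplotlib 3.10.9) and R 4.3.3 with limma 3.58.1.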

Additional observations from a re-analysis of the deposited data

How the results depend on the processing

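No member had a limma adjusted p under 0.05 in any of 232 alternative fits of the 12 member differences, and the smallest was 0.178, for Syt7 in Site #2 vs Site #3 without replicate 1 of Site #2. The direction was the main one in 218 of the 232. Efnb2 in Site #1 vs Site #3 changed sign with array weights (-0.0059), the cause of which was not tested, and with the replicate block (-0.017). Under the block, replicate 6 of Site #3 has no partner at Site #1, and leaving out that library alone gave the same value (-0.017). Leaving out single libraries moved Efnb2 from -0.128 to 0.024 in Site #1 vs Site #2 and from -0.050 to 0.102 in Site #1 vs Site #3. It moved Nrsn2 from -0.082 to 0.015 and Tenm4 from -0.099 to 0.031 in Site #1 vs Site #3, and Nrsn2 from -0.013 to 0.067 in Site #2 vs Site #3.

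The exact permutation p of Tenm4 over the sites ran from 0.0122 to 0.212 when single libraries were left out. The correlation of Syt7 and Nrsn2 ran from -0.68 to -0.50, passed with site means removed (-0.71) and was weaker under quantile normalization (-0.49, adjusted permutation p = 0.138). That of Efnb2 and Nrsn2 ran from 0.55 to 0.73, with 7 of 17 values no longer past the threshold, and missed it under median centring (0.61, adjusted permutation p = 0.0539). That of Syt7 and Tenm4 ran from 0.24 to 0.64, that of Syt7 and Efnb2 from -0.194 to 0.062 and that of Nrsn2 and Tenm4 from -0.095 to 0.165. Syt7 with Efnb2 changed sign under quantile normalization (0.0076), and Nrsn2 with Tenm4 under median centring (-0.029) and with site means removed (-0.054). The cause was not tested.

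Counts over all genes moved more. Site #1 vs Site #2 gave 0 or 1, Site #1 vs Site #3 gave 0 to 36 (main 23) and Site #2 vs Site #3 gave 43 to 482 (main 239). Rats with the same replicate number at different sites are different animals. Their deviations correlated from -0.46 to 0.39, with means of -0.003, -0.17 and 0.03 in the same order of pairs. Whether equal numbers share a processing step was not tested. With the replicate number as a block, 0 members and 0, 0 and 43 genes were called. In the pairs with Site #1, replicate 6 of the other site has no partner under the block. Without that replicate alone, 0 genes were called in Site #1 vs Site #2 and 14 in Site #1 vs Site #3. The depth of each library is unknown, so counting error could not be separated from differences between rats.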
